A study of Homo sapiens with 6 samples.

Results

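The genes described here are 10 members of the NF-kB system: the subunit genes Rela, Relb, Nfkb1 and Nfkb2, the inhibitor genes Nfkbia and Tnfaip3, the ubiquitin ligase genes Birc2 and Birc3, and the target genes Icam1 and Sod2. They were chosen by identifier (ID), and all 10 were found among the 34866 rows of the deposited table of estimated counts per gene. RNA sequencing had been done in 6 libraries labelled as MKN45, a line from a human gastric cancer that the study describes as negative for the gland mucin MUC6. The 3 GOLPH3 shRNA libraries came from cells given an adenovirus with a short hairpin RNA against GOLPH3, a Golgi protein that helps to hold glycosyltransferases in place. The 3 control shRNA libraries came from cells given an adenovirus with a control hairpin, so both groups had received a virus. The comparison asks how expression of these genes differed between the hairpins. Per the labels, both groups were grown in RPMI1640 with serum and antibiotics. The labels give no hairpin sequence, virus dose or time after infection, and do not say whether the numbered samples were separate cultures, so the p-values describe the scatter of these 3 and 3 samples, whose source may be technical.

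The rows carry mouse Ensembl IDs and the submitters' processing notes name the mouse build mm10, while the labels give human cells. Human reads assigned to mouse gene models and reads from mouse cells cannot be told apart from this table. Mouse symbols are used for the table's rows and human symbols for human sequence. Levels of different genes are not compared, since no mouse transcript lengths were used here. Libraries held 4977645 to 5676169 estimated counts with GOLPH3 shRNA and 6287037 to 7355140 with control shRNA. The level of GOLPH3, other pathway genes and epithelial markers were not analysed here, because no table used here pairs mouse IDs with symbols.

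NF-kB is a family of dimeric transcription factors that inhibitor proteins hold in the cytoplasm until a receptor signal removes them. Among the genes that it then switches on are its own inhibitors, which end the response, and genes for survival, adhesion and oxidant defence. In the stomach, epithelial NF-kB is best known for the response to Helicobacter infection and to inflammatory cytokines.

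Feedback of this kind runs through kB sites, the short DNA elements that the dimers bind. Human promoters of the members, as RefSeq gives them on GRCh38.p14, are shown to make these elements visible. The 250 bases before each annotated start were searched on both strands for the kB consensus, and capitals mark bases within a match. Of the human counterparts of the 2 members called below, NFKBIA held a match and is shown in full, while SOD2 held no match. The NFKBIA window lies at chr14:35404750-35404999 on the minus strand, outside every exon of GENCODE 29, and the match begins 81 bases before the start.
NFKBIA: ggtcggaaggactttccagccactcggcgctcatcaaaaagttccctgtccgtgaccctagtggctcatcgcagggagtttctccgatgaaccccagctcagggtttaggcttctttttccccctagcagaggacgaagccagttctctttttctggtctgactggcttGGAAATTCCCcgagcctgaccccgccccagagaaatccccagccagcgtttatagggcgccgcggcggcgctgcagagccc

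For the other genes with a match, 30 bases around it are shown, on the plus strand; a further NFKB2 window with 2 matches is not shown. The NFKB1 stretch is at chr4:102501300-102501329, within an annotated NFKB1 exon and an exon of another gene on the opposite strand. The NFKB2 stretches are at chr10:102394461-102394490 and chr10:102394490-102394519, within an annotated NFKB2 exon upstream of an alternative start. The TNFAIP3 stretch is at chr6:137867194-137867223, within an annotated TNFAIP3 exon. The BIRC3 stretches are at chr11:102317275-102317304 and chr11:102317339-102317368, outside annotated exons.
NFKB1: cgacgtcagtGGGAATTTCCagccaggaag
NFKB2 first: gaaacgtcatGGGAATTCCCCcctccgggg
NFKB2 second: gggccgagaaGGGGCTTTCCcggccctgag
TNFAIP3: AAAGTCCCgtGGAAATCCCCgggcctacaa
BIRC3 first: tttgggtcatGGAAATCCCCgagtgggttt
BIRC3 second: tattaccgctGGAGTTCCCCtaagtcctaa

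Windows were found for 9 of the 10 genes, RELB being the other, and 5 of the 9 held at least 1 match: BIRC3, NFKB1, NFKB2, NFKBIA and TNFAIP3. Among all 27305 genes with a window, 11.8% held a match in at least 1 of their windows. Counted by window, 6 of 17 member windows held a match, against 9.96% of all 35116 windows. The members were chosen as NF-kB genes, among them feedback and target genes, so these shares are no test of enrichment. The first NFKB2 stretch and the TNFAIP3 stretch each carry overlapping or neighbouring matches, and the capitals at the left end of the TNFAIP3 line belong to the neighbour. RELA, BIRC2, ICAM1 and SOD2 had no match in these windows, which says only that these letters are not there. A match is a stretch of letters and not a measured site.

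In the count data, GOLPH3 shRNA went with more Sod2 mRNA, a small and unstable increase of Nfkbia mRNA, and no call for any subunit gene. Of the 10 members, 8 had enough counts to be tested, and 2 of these were higher and 0 lower (adjusted p below 0.05 in edgeR's quasi-likelihood test, by Benjamini and Hochberg over 11400 tested IDs). Thus 25% of the tested members were called, against 33.9% of all tested IDs, of which 16.1% were higher and 17.8% lower. With 2 calls among 8 genes, and both of them higher, these shares are given as counts only, and no difference between the members and other IDs was tested. In these bulk samples, a change in which cells are present and a change in RNA per cell cannot be told apart. At an unadjusted edgeR p below 0.05 the member counts were again 2 higher and 0 lower. The share of all tested IDs at that threshold was not taken, but it cannot be below the 33.9% called after adjustment. DESeq2 called 2 members higher and 0 lower, beside 1736 higher and 1830 lower among all 11400 IDs. With limma-voom it was 1 member higher and 0 lower, beside 1872 and 2025 of all IDs. Values below are CPM, counts relative to a fixed total per library after scaling by trimmed mean (TMM) factors, and differences are log2 fold changes of GOLPH3 shRNA over control shRNA with their standard errors (SE).

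**Figure D1:**
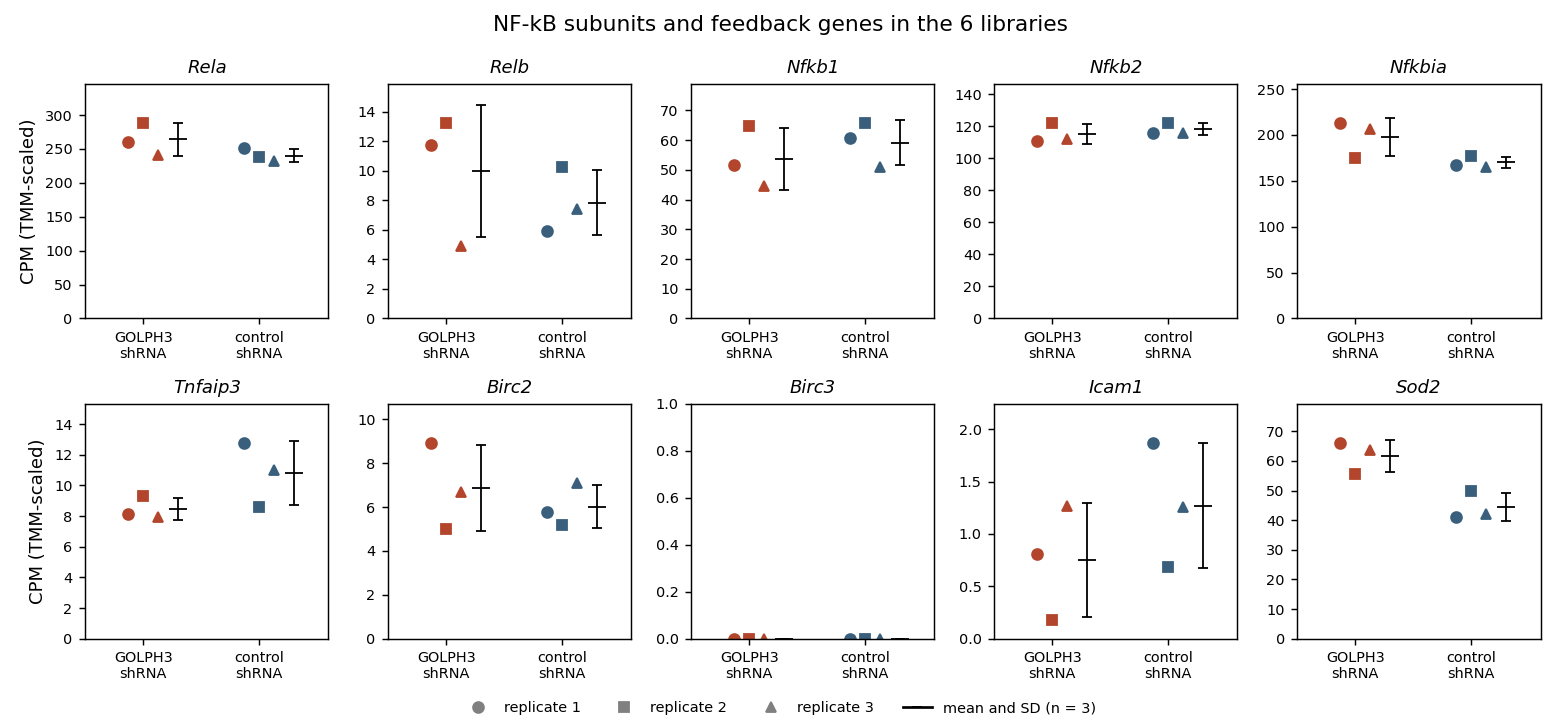
CPM of the 10 members in each library, by hairpin, with replicates 1 to 3 as circles, squares and triangles and the mean and SD (n = 3) beside them; each panel has its own linear axis from 0. Sod2 is the member whose 3 GOLPH3 shRNA libraries all lie above the 3 control shRNA libraries, while Birc3 is at 0 in all 6.

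None of the 4 subunit genes passed the test. Rela (ENSMUSG00000024927.7) encodes the subunit with the main activating domain of the canonical dimer. It had 260.7, 288.6 and 241.4 CPM in GOLPH3 shRNA replicates 1, 2 and 3, against 251.3, 238.2 and 232.0 CPM in control shRNA replicates 1, 2 and 3. The groups overlapped, with only the lowest GOLPH3 shRNA library below the highest control. The log2 fold change was 0.13 (SE 0.076, edgeR adjusted p = 0.19), and the 95% interval ran from 0.98-fold to 1.23-fold.

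Nfkb1 (ENSMUSG00000028163.17) encodes the precursor that is processed into the DNA-binding partner of RelA. It had 51.7, 64.8 and 44.5 CPM in the GOLPH3 shRNA libraries, against 60.7, 65.9 and 50.9 CPM in the control shRNA libraries. The groups overlapped over most of their range, and replicate 2 was the highest library of each group. The log2 fold change was -0.14 (SE 0.13, edgeR adjusted p = 0.44, 95% interval 0.745-fold to 1.10-fold). The Nfkb1 estimates of GOLPH3 shRNA replicates 1 and 3 had a fractional part.

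Relb and Nfkb2 encode the partners of the non-canonical dimer, in which RelB pairs with the product of the Nfkb2 precursor. Nfkb2 (ENSMUSG00000025225.14) had 110.9, 122.1 and 112.2 CPM with GOLPH3 shRNA, against 115.7, 122.0 and 115.5 CPM with control shRNA. These are the closest levels between the groups of any tested member, at -0.033 in log2 (SE 0.078, edgeR adjusted p = 0.78), with a 95% interval of 0.871-fold to 1.10-fold. Of all tested IDs, 94.1% had a larger absolute log2 fold change. Relb (ENSMUSG00000002983.17), in contrast, was the most scattered tested member. It had 11.8, 13.3 and 4.88 CPM with GOLPH3 shRNA (58, 74 and 27 counts), against 5.92, 10.2 and 7.41 CPM with control shRNA (38, 75 and 47 counts). The GOLPH3 shRNA libraries included both the highest and the lowest value of all 6. The log2 fold change was 0.33 (SE 0.32, edgeR adjusted p = 0.46), and the 95% interval ran from 0.783-fold to 2.03-fold.

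The 4 subunit IDs together held 435.1, 488.8 and 403.0 CPM in the GOLPH3 shRNA libraries, against 433.6, 436.3 and 405.8 CPM in the control shRNA libraries. The sum is one of assigned counts, in which longer transcripts weigh more. Its mean was 442 ± 43.4 CPM with GOLPH3 shRNA and 425 ± 16.9 CPM with control shRNA (SD, n = 3), a difference of 17.1 CPM or 4.01%, smaller than the SD within the GOLPH3 shRNA libraries. Without GOLPH3 shRNA replicate 2 the difference was -6.21 CPM.

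**Figure D2:**
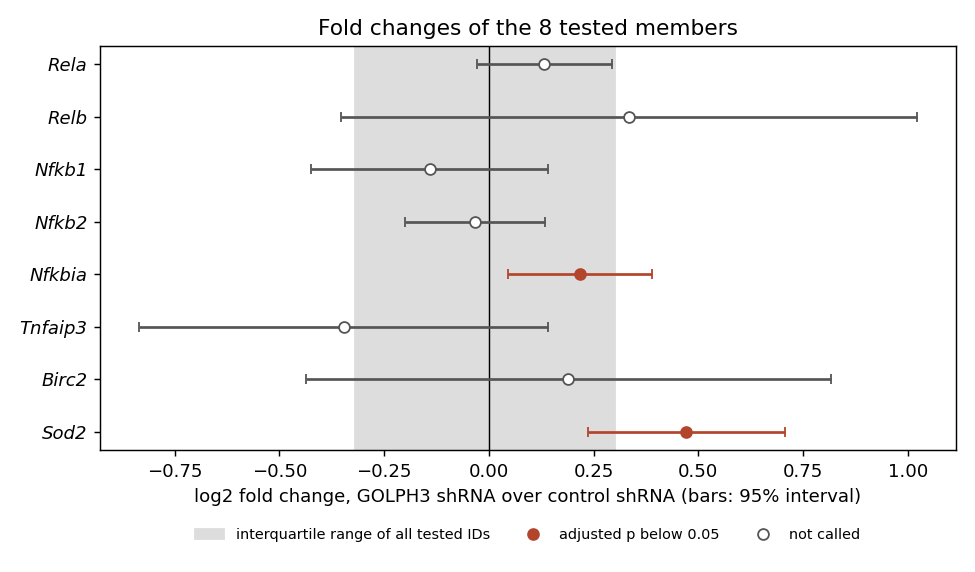
Log2 fold change of the 8 tested members (GOLPH3 shRNA over control shRNA, points) with 95% intervals (bars), from the edgeR fit; the grey band is the interquartile range of all 11400 tested IDs, from -0.32 to 0.30. The intervals of Nfkbia and Sod2 lie above 0 and those of the other 6 hold 0, and the Sod2 point is the only called one outside the band.

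The inhibitor genes differed in sign. Nfkbia (ENSMUSG00000021025.8) encodes IkB-alpha, which retains NF-kB in the cytoplasm and is resynthesised when NF-kB is active. It had 213.3, 174.6 and 206.2 CPM with GOLPH3 shRNA, against 167.8, 177.1 and 165.5 CPM with control shRNA. GOLPH3 shRNA replicates 1 and 3 lay above all controls, while replicate 2 lay below the highest of them. Nfkbia rose 1.16-fold, or 0.22 in log2 (SE 0.081, 95% interval 1.03-fold to 1.31-fold, edgeR adjusted p = 0.049), and 63.4% of all tested IDs had a larger absolute log2 fold change.

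The Nfkbia call sat at the threshold. It held in 5 of 16 alternative analyses and was lost in 11, with the same sign in all 16 and adjusted p from 0.0086 to 0.23. The log2 fold change was 0.16 without GOLPH3 shRNA replicate 1 (adjusted p = 0.23), 0.18 without replicate 3 (adjusted p = 0.16) and 0.30 without replicate 2 (adjusted p = 0.0086, edgeR). Leaving out control shRNA replicate 1, 2 or 3 also ended the call (edgeR adjusted p = 0.11, 0.079 and 0.15). Every Nfkbia estimate had a fractional part, in all 6 libraries, and its part in the result was not tested.

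Tnfaip3 (ENSMUSG00000019850.11) encodes a ubiquitin-editing enzyme that switches off signalling between the receptors and the kinase that marks IkB-alpha for removal. It had 8.11, 9.31 and 7.95 CPM with GOLPH3 shRNA (40, 52 and 44 counts), against 12.8, 8.59 and 11.0 CPM with control shRNA (82, 63 and 70 counts). Control shRNA replicate 2 fell among the GOLPH3 shRNA values and the other controls lay above them. The log2 fold change was -0.35 (SE 0.23, edgeR adjusted p = 0.27), and the 95% interval ran from 0.560-fold to 1.10-fold.

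The difference between the inhibitors was looked at after their values had been seen, and is a description. The log2 ratio of Tnfaip3 to Nfkbia CPM was -4.72, -4.23 and -4.70 in the GOLPH3 shRNA libraries, against -3.72, -4.37 and -3.91 in the control shRNA libraries. The mean difference was -0.55, with SDs of 0.28 in GOLPH3 shRNA and 0.33 in control shRNA libraries (n = 3 each). Replicate 2 of each group broke the separation, so that the groups overlapped.

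The ubiquitin ligases of the receptor complex gave little information. Birc2 and Birc3 encode closely related inhibitor-of-apoptosis proteins that modify signalling proteins at the tumour necrosis factor receptor and, without a signal, keep the kinase of the non-canonical route at low levels. Birc2 (ENSMUSG00000057367.12) had 8.92, 5.01 and 6.69 CPM with GOLPH3 shRNA (44, 28 and 37 counts), against 5.76, 5.18 and 7.09 CPM with control shRNA (37, 38 and 45 counts). The GOLPH3 shRNA libraries spanned both ends of the 6 values, and all Birc2 estimates were whole numbers. The log2 fold change was 0.19 (SE 0.30, edgeR adjusted p = 0.66, 95% interval 0.738-fold to 1.76-fold), and it was -0.041 without GOLPH3 shRNA replicate 1.

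Birc3 (ENSMUSG00000032000.17) was listed at 0 counts in each of the 6 libraries. At these depths, 3 counts would have been 0.537 to 0.608 CPM with GOLPH3 shRNA and 0.409 to 0.473 CPM with control shRNA, the level up to which a count of 0 is uninformative, for counting error only. No fold is given. A count of 0 here is of reads assigned to the mouse Birc3 model, and human BIRC3 transcripts that did not match it would also give 0. In humans, BIRC3 is a strongly NF-kB-induced gene.

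The target genes Icam1 and Sod2 stand for adhesion and for oxidant defence. Icam1 (ENSMUSG00000037405.8), which encodes a surface protein that binds leukocyte integrins, had rounded counts of 4, 1 and 7 with GOLPH3 shRNA, or 12 in all, against 12, 5 and 8 with control shRNA, or 25 in all. In CPM these were 0.811, 0.179 and 1.27 with GOLPH3 shRNA and 1.87, 0.682 and 1.26 with control shRNA, and the groups overlapped. Icam1 did not pass the filter on low counts. In a fit of all 18051 IDs with a count its log2 fold change was -0.75 (SE 0.80, edgeR adjusted p = 0.58), and no difference was detected at these counts.

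Sod2 (ENSMUSG00000006818.4) encodes the manganese superoxide dismutase of mitochondria, which turns superoxide into hydrogen peroxide and is a classical target of NF-kB after cytokine signals. It had 66.1, 55.5 and 63.6 CPM with GOLPH3 shRNA (326, 310 and 352 counts), against 41.3, 49.9 and 42.1 CPM with control shRNA (265, 366 and 267 counts). The lowest GOLPH3 shRNA library lay above the highest control, so Sod2 was the 1 member whose groups did not overlap. Of all tested IDs, 46.3% had groups that did not overlap, and 22.1% lay wholly higher and 24.2% wholly lower with GOLPH3 shRNA.

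Sod2 rose 1.39-fold, or 0.47 in log2 (SE 0.11, 95% interval 1.18-fold to 1.63-fold, edgeR adjusted p = 0.0038). Its mean was 61.7 ± 5.54 CPM with GOLPH3 shRNA and 44.4 ± 4.78 CPM with control shRNA (SD, n = 3). It was called in all 16 alternatives in which it could be tested, with log2 fold changes from 0.41 to 0.56 and adjusted p from 0.00076 to 0.027. The rise was of common size in this comparison, since 31.6% of all tested IDs had a larger absolute log2 fold change. The Sod2 estimate of control shRNA replicate 1 had a fractional part.

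**Figure D3:**
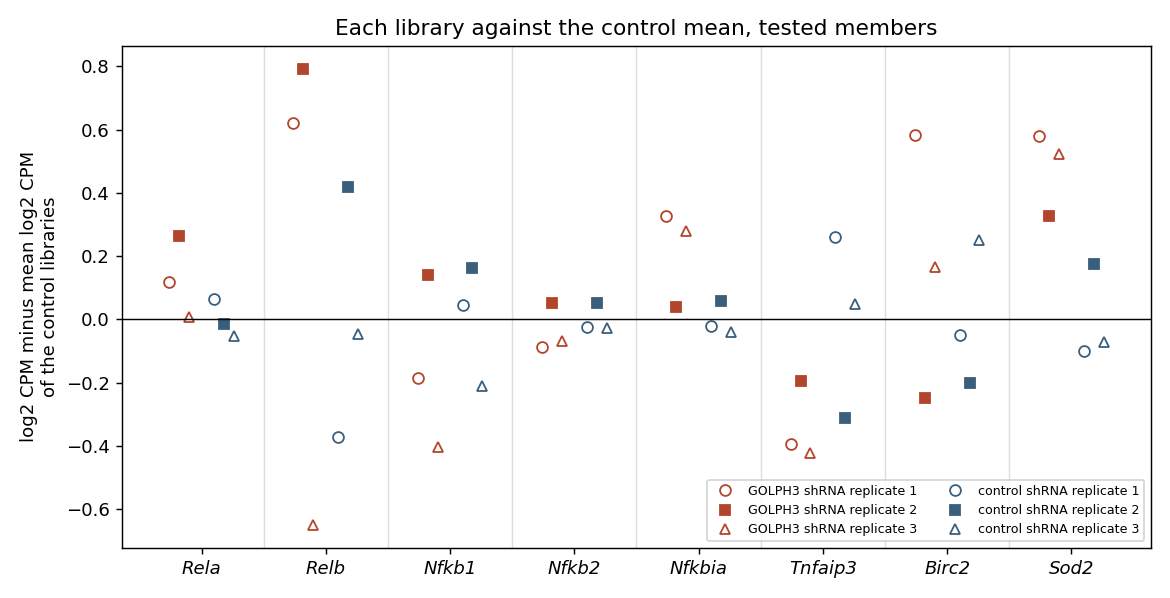
Log2 CPM of each of the 8 tested members in each library, less the mean log2 CPM of the 3 control shRNA libraries; GOLPH3 shRNA is left of control shRNA for each gene, and replicate 2 of each group is filled. GOLPH3 shRNA replicate 2 is the highest of its group for Rela, Relb, Nfkb1, Nfkb2 and Tnfaip3 and the lowest for Nfkbia, Birc2 and Sod2.

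The members did not share 1 pattern across the libraries of a group. GOLPH3 shRNA replicate 2 was an extreme library of its group for all 8 tested members, highest for 5 and lowest for 3. Of all tested IDs, 68.5% had replicate 2 as the highest or lowest GOLPH3 shRNA library, with 35.5% highest and 33.0% lowest. The 4 subunit genes and Tnfaip3 were highest there, while Nfkbia, Birc2 and Sod2 were lowest. In the control shRNA libraries the picture differed, since replicate 2 was the highest for Relb, Nfkb1, Nfkb2, Nfkbia and Sod2 and the lowest for Tnfaip3 and Birc2. Of all tested IDs, 30.6% had control shRNA replicate 2 as the highest and 30.9% as the lowest library of its group. Nfkbia and Sod2 were thus lowest in replicate 2 with GOLPH3 shRNA and highest in replicate 2 with control shRNA, and Tnfaip3 the other way round. Relb, Nfkb1 and Nfkb2 were highest, and Birc2 lowest, in replicate 2 of both groups.

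The precision differed widely among the members and set what could be seen. The coefficient of variation over GOLPH3 shRNA libraries ran from 5.33% for Nfkb2 to 44.8% for Relb among tested members, and over control shRNA libraries from 3.16% for Nfkb2 to 27.9% for Relb. For Rela and Nfkb2, the intervals hold no fold above 1.23 or below 0.871. For Relb, Birc2 and Tnfaip3, with 27 to 82 counts per library, changes of 1.5-fold in at least 1 direction lay within the intervals. A missed threshold for those genes does not show that they were the same in both groups.

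**Figure D4:**
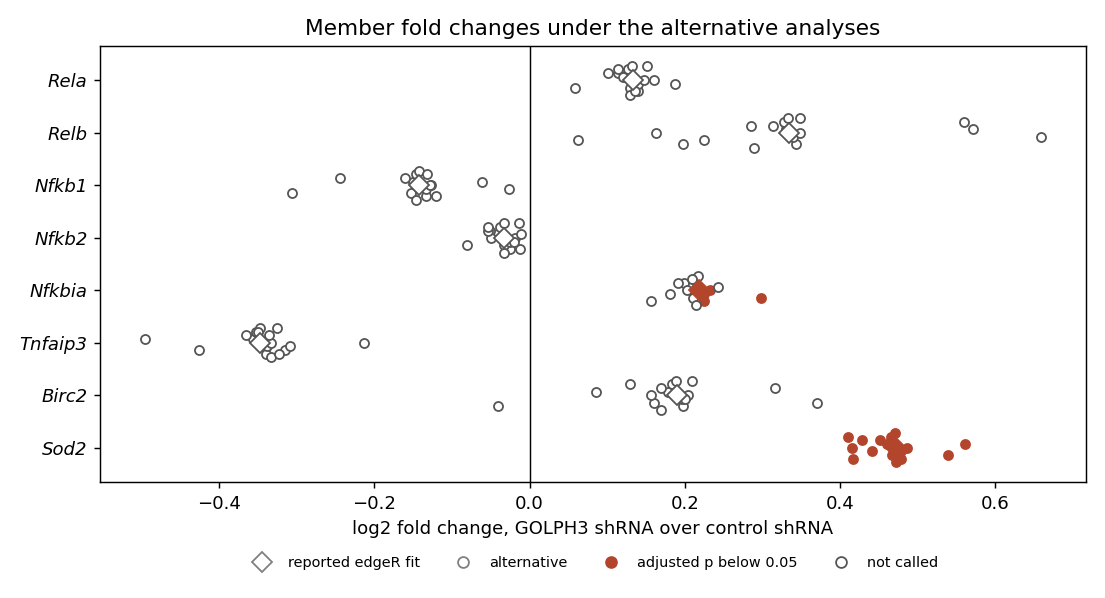
Log2 fold change of the 8 tested members (GOLPH3 shRNA over control shRNA) in the reported edgeR fit (diamonds) and in 16 or 17 alternatives per gene (circles); filled symbols have an adjusted p below 0.05. Sod2 is filled throughout, Nfkbia is filled in the reported fit and in some alternatives, and no other member is filled. Nfkbia was called in 5 alternatives. Among these, the fit with counts not rounded had an edgeR adjusted p that rounds to 0.05, the limit for a filled symbol. Symbols were filled by the rounded value, so this fit is drawn open.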

How the data were processed

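Per the labels' protocols, libraries were prepared from column-purified RNA with TruSeq Stranded mRNA reagents. Estimated counts, as deposited by the authors in 1 table, were whole, meaning exactly equal to an integer as written, for 64.2% to 65.5% of the non-zero values of a library. The submitters' processing notes name mm10. Not given in the sources used here were the quantifier, annotation release, strand setting and filters.

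Columns were mapped to samples by title. Estimated counts were rounded to whole numbers and filtered with filterByExpr of edgeR 4.0.16 in R 4.3.3, which kept 11400 of 34866 IDs and 99.7% to 99.8% of each library's counts. Groups were compared over all kept IDs by the quasi-likelihood F test after TMM scaling, with p adjusted by Benjamini and Hochberg. The SE was derived from F and the log2 fold change, and 95% intervals used the test's degrees of freedom. The step was also run on data simulated with the fit's own spread, which does not show how well that spread describes these libraries.

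Alternatives were DESeq2 1.42.0, voom of limma 3.58.1, other scalings and filters, unrounded counts, a block for the replicate number, omission of each library, thinned libraries and, added after the data were examined, only IDs with whole counts. The members and lists were chosen with earlier results of these data known. All 10 members are named. Further pathway lists and marker lists by symbol were not analysed, since 0 of the table's IDs matched the name tables used here. Promoter windows are from RefSeq on GRCh38.p14, matched by human symbol. Intervals and limits cover counting error and the spread between libraries only.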

Additional observations from a re-analysis of the deposited data

How the results depend on the processing

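Sod2 stayed higher and called, and Rela, Relb, Nfkb1, Nfkb2, Tnfaip3 and Birc2 stayed uncalled, in every alternative in which each was tested. Their signs held except for Birc2, which was -0.041 without GOLPH3 shRNA replicate 1 (log2 fold change over the left-out libraries from -0.041 to 0.37). Nfkbia lost its call with limma-voom (0.21, adjusted p = 0.056), library totals (0.21, adjusted p = 0.054), every ID with a count (0.20, adjusted p = 0.063), at least 1 CPM in 3 libraries (0.21, adjusted p = 0.060) and thinned libraries (0.21, adjusted p = 0.063). Those analyses called 1 member higher in place of 2. Over the table they called 1768 to 1922 IDs higher and 1958 to 2222 lower, among 11141 to 18051 tested. With the replicate number as a block it was 0.21 (edgeR adjusted p = 0.061), again leaving 1 member called. Whether the replicate numbers pair the samples was not tested. Deviations of same-numbered libraries correlated at 0.032, 0.090 and 0.044 across IDs, and those of differently numbered libraries at -0.086 to 0.037. The block gave 1842 IDs higher and 2045 lower over the table, against 1840 and 2030. GOLPH3 shRNA replicate 1 deviated most like control replicate 1 and replicates 2 and 3 most like their own numbers, but control replicate 1 was closer to GOLPH3 shRNA replicate 3 (0.037). Leaving out each library gave Nfkbia values from 0.16 to 0.30, and 1 to 2 members higher. Over the table, these fits called 1425 to 1665 IDs higher and 1644 to 1929 lower, among 11635 to 11746 tested. The summed subunit CPM difference ran from -6.21 without GOLPH3 shRNA replicate 2 to 36.7 without GOLPH3 shRNA replicate 3. Only IDs with whole counts left 5 members to test and 0 called, because Sod2, Nfkbia and Nfkb1 drop out there by construction, and gave 1245 IDs higher and 1240 lower among 6263 tested, without the excess of lower calls seen over all IDs; the cause was not tested. Scaling moved the median log2 fold change of all IDs between -0.0074 and 0.016. Counts were few for Birc3 (0) and Icam1 (12 and 25), whether from low expression, depth or reads not assigned to the mouse models, which was not tested. Intervals were wide for Relb, Tnfaip3 and Birc2, where both counts and the spread between libraries enter.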
